A study of Mus musculus with 3 samples.

Results

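The genes described here encode the mitochondrial respiratory chain, the 5 protein complexes of the inner mitochondrial membrane that move electrons to oxygen and make ATP. They were chosen by name: 86 of the 27827 gene names on the array (125 of 41174 probes) had a symbol that places them, by naming convention, with complex I (39 genes), II (4), III (7), IV (19) or V (17). RNA came from C3H10T1/2 cells, a mouse line of embryonic, fibroblast-like cells often used to score transformed foci, in 3 groups that differed in hexavalent chromium, Cr(VI): untreated, 0.01 uM and 1 uM. Each group had 3 flasks seeded with 2000 cells. Cr(VI) was added 24 h after seeding and washed away after 48 h, and the cells of all groups were kept in culture until day 15, when RNA was taken, so the arrays describe cells long after exposure had ended. A single Cy3 array was run per group, all on 1 slide, and whether the flasks were pooled is not stated. There were therefore no replicates and no p-values, and each difference below is between 2 single arrays.

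Complex I (NADH dehydrogenase) and complex II (succinate dehydrogenase) pass electrons to ubiquinone, complex III hands them to cytochrome c, complex IV (cytochrome c oxidase) reduces oxygen, and complex V (ATP synthase) uses the proton gradient that complexes I, III and IV build. Most subunits are encoded in the nucleus and imported, and a few by mitochondrial DNA. Several complex IV subunits exist as a widely expressed form and a form restricted to heart and skeletal muscle, testis or lung. Names follow the array, which is old: Cox4nb (now Emc8) is a subunit of an endoplasmic reticulum complex and no chain gene, Atp5s and Atp5sl (now Dmac2l and Dmac2) are not ATP synthase subunits proper, Ndufaf1 and Ndufaf2 are assembly factors of complex I, and Ndufa4, named for complex I, is now placed with complex IV. These genes were kept, since the choice was by name.

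The probes below are shown because the differences of single members rest on them: Cox7a1 has 1 probe, Ndufa6 has 1, Uqcrh has 1 that was not saturated, and Ndufv3 has 3 that disagreed. Each is 60 bases long and is printed 5′ to 3′ as the array files give it, with no letters marked.
Cox7a1, A_51_P148612: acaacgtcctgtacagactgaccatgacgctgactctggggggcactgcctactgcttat
Ndufa6, A_52_P217474: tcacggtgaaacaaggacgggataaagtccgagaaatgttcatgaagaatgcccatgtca
Uqcrh, A_52_P541875: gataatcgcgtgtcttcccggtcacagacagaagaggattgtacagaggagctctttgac
Ndufv3, A_52_P170054: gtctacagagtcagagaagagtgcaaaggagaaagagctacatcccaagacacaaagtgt
Ndufv3, A_52_P175897: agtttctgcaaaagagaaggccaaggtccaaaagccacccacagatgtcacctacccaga
Ndufv3, A_51_P140211: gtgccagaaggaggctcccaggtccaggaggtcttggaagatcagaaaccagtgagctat
In mm9, the build of the array files, the Cox7a1 probe covers chr7:30970337-30970948 on the plus strand, a span of 612 bases, so it crosses a splice junction. The Ndufa6 probe lies at chr15:82181444-82181503 and the Uqcrh probe at chr4:115742492-115742551, both on the minus strand. The Ndufv3 probes lie on chromosome 17, plus strand, at 31658570 to 31658629, 31664691 to 31664750 and 31665148 to 31665207, in the order printed. Each of the 6 probes holds at least 1 reading frame without a stop codon. An exon annotation of mm9 was not used here.

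Signals are given as log2 of the scanner's processed intensity minus the array's 75th percentile over the 14723 probes well above background on all 3 arrays (35.8% of probes). A value of 0 is therefore the upper quartile of detected probes, and levels of different probes cannot be set against each other. Saturated spots were left out. Genes whose probe exceeded background clearly on 1 or both arrays of a comparison were compared, and 77 of the 86 members were compared in each of the 3 comparisons. Of the other 9, Atp5c1, Cox6a1 and Cox8a were saturated on all 3 arrays and Ndufa13 on the untreated and the 1 uM array. Cox4i2, Cox6b2, Cox7b2, Cox8b and Cox8c were not well above background on any array. The scanner's error model gave a median technical standard error (SE) of 0.20 for a member's log2 difference, which does not hold the spread between cultures.

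On every array 93.0% to 94.2% of the members, each taken by its brightest probe, were well above background. Of all probes, counted singly, 36.4% to 41.8% were, so these shares were not counted alike. The labelled cell type was checked on 12 fibroblast or mesenchymal markers, of which 10, 10 and 9 were above background on the untreated, 0.01 uM and 1 uM array, with Col1a2 and Dcn dim on all 3. Of 9 of these markers compared at 1 uM against untreated, 6 were at least 1.5-fold lower and 1 higher, and Thy1 was not detected at 1 uM. The summed linear signal of the list was 61.2, 68.3 and 41.1 times the scaling percentile on the untreated, 0.01 uM and 1 uM array. None of 6 epithelial markers was above background on any array. Of the other marker lists, 1 of 5 endothelial and 3 of 10 macrophage and blood markers were detected on the untreated array, and 2 of 5 and 4 of 10 on the 1 uM array. The part of these shifts in the chain genes was not tested.

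With 1 uM Cr(VI) most chain genes stayed close to their untreated signal, and those that moved past 1.5-fold were all lower. Among the alternative settings, the mean of probes gave 1 higher member (Ndufab1) and membership by current gene symbol also gave 1, beside 15.65% and 16.3% of all genes. Scaling on the spike-in controls gave 32 higher and 1 lower, beside 54.5% and 2.93% of all genes. The spike-in scale placed the median of all genes 0.61 higher at 1 uM and 0.36 higher at 0.01 uM, and every direction below is relative to the scaling used here. Of 77 members, 4 were at least 1.5-fold lower (Cox7a1, Atp5sl, Ndufa6 and Uqcrh) and none higher. Over all 12314 genes compared, 11.6% were lower and 16.3% higher by that measure. The members' median log2 difference was -0.074 and their quartiles were -0.26 and 0.057, whereas over all genes the median was 0.031 and the quartiles were -0.31 and 0.40. The sign of the members' median rested on the scaling: it was 0.048 after quantile normalization and 0.019 after loess. Dim probes spread more than bright ones, so the same counts were also taken over genes with a mean signal above 0, a restriction chosen after seeing the data. There, 2 of 58 members were lower and 0 higher, beside 10.6% and 6.07% of 3030 genes. The median was -0.049 for these members and -0.060 for these genes, so the members did not lie below genes of similar brightness. A difference beyond 2 technical SE was seen for 13 of the 77 members (16.9%) and for 38.1% of all genes, and among the brighter genes for 12.1% of members and 30.6%.

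**Figure D1:**
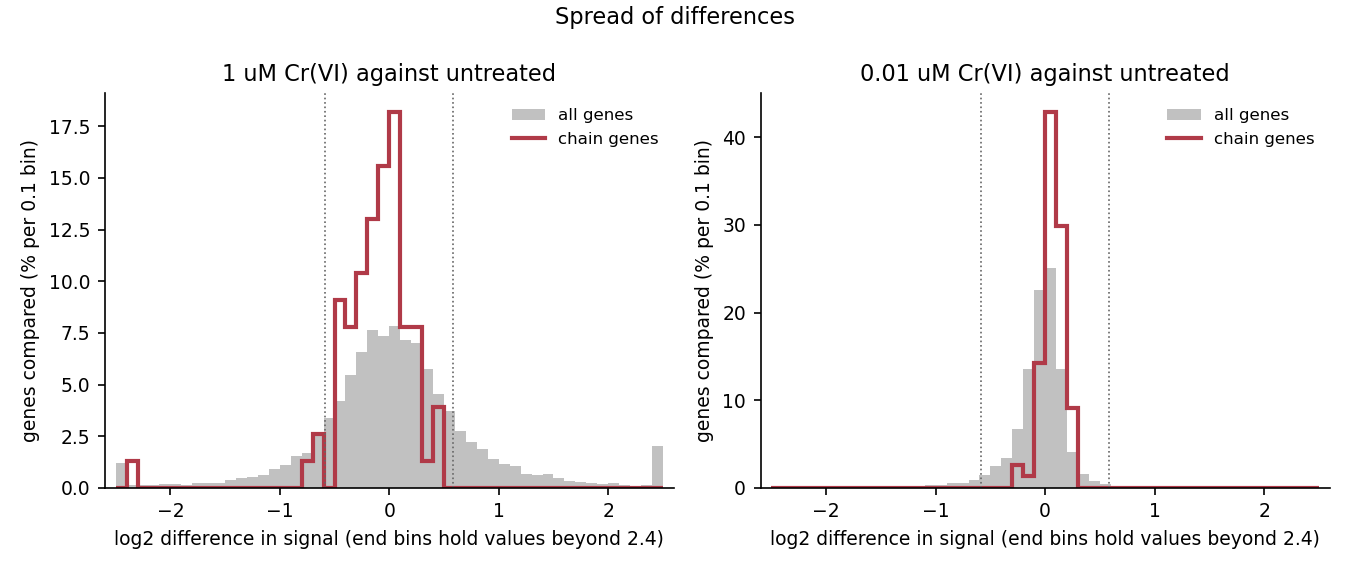
Share of genes per 0.1-wide bin of log2 difference, for 1 uM Cr(VI) against untreated (left) and 0.01 uM against untreated (right), in all genes compared (grey) and in the 77 chain genes (red line). Dotted lines mark 1.5-fold, dim genes stand at their measured value, and the chain genes on the left lie between -0.76 and 0.42 apart from Cox7a1 at -2.40.

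With 0.01 uM Cr(VI) no member reached 1.5-fold, or even 0.32 on the log2 scale, in either direction. Few genes of any kind did: at 0.32, 2.62% of all genes were higher and 6.20% lower. For all 11783 genes, the shares past 1.5-fold were 0.637% higher and 1.57% lower, and with a mean signal above 0 these shares were 0.198% and 0.198%. The members' median was 0.078, with 63 of 77 above 0 (81.8%), and no member lay beyond 2 technical SE. Beyond 2 SE lay 3.25% of all genes and 1.55% of those with a mean signal above 0. Among all genes 46.0% were above 0, and among the 3031 with a mean signal above 0 it was 66.1%, with a median of 0.042. The 58 members with a mean signal above 0 had 82.8% above 0 and a median of 0.080. With quantile normalization and loess the members' median was 0.039 and 0.036.

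Set against 0.01 uM, the 1 uM array had 5 members at least 1.5-fold lower (Cox7a1, Uqcrh, Ndufa6, Cox6a2 and Ndufa3) and 0 higher, beside 12.9% and 16.7% of 11926 genes. The members with a mean signal above 0 gave 2 of 58 lower and 0 higher, beside 14.3% and 7.22% of 3035 genes. The members' median over all 77 was -0.16, and over all genes it was 0.072. With a mean signal above 0 these medians were -0.15 and -0.11. The 3 comparisons share arrays and are not independent of each other. The split of calls over all genes also moved with the scaling: of the genes past 1.5-fold, 58.4% were higher at 1 uM against untreated, 28.9% at 0.01 uM and 56.4% between the doses, and with quantile normalization these shares were 53.7%, 46.4% and 49.9%, with the percentile of all probes 50.7%, 43.2% and 41.6%, and on the spike-in scale 94.9%, 94.6% and 80.2%.

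**Figure D2:**
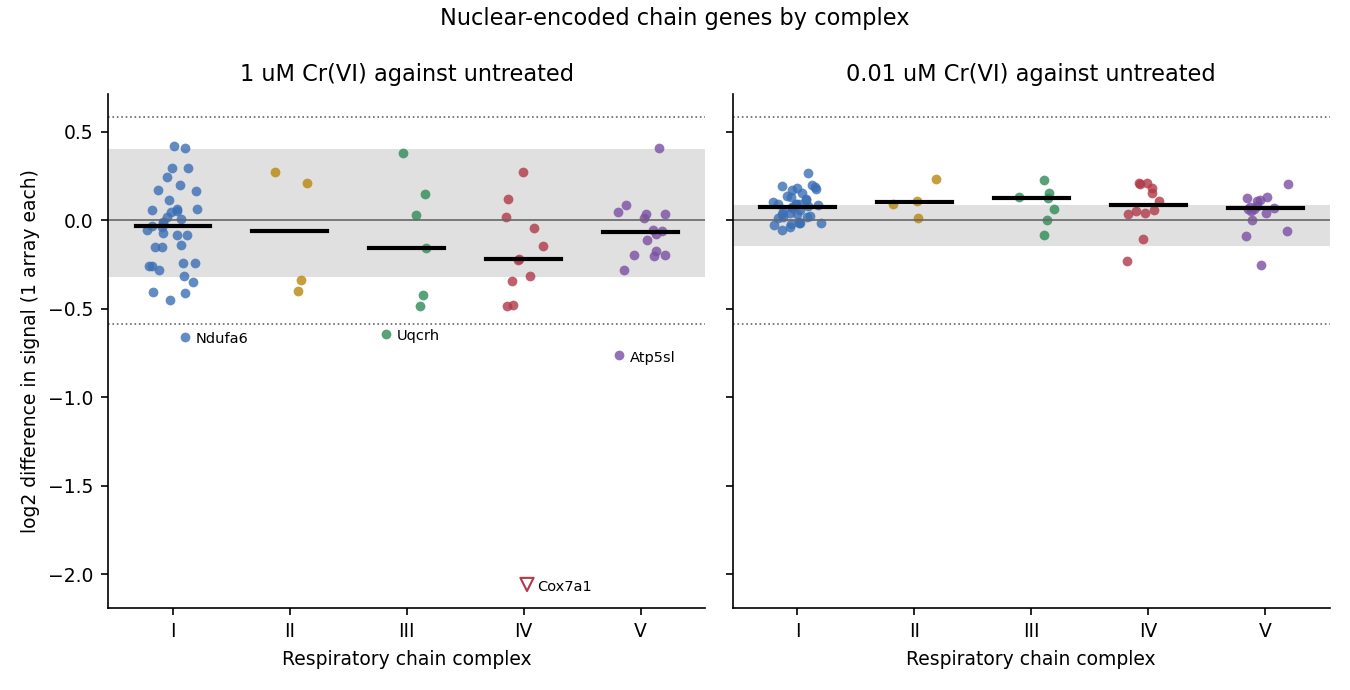
Log2 difference of each chain gene by complex, 1 uM Cr(VI) against untreated (left) and 0.01 uM against untreated (right), with 1 array per group. Points are genes, black bars are medians, the grey band holds the middle 50% of all genes, dotted lines mark 1.5-fold and the open triangle is a bound; the 4 named genes lie below the lower line at 1 uM and none lies beyond a line at 0.01 uM.

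Complex I has 7 nuclear-encoded core subunits, which carry the flavin and iron-sulfur clusters, and many accessory ones. At 1 uM the 7 core genes had a median log2 difference of -0.082, from -0.32 in Ndufs3 to 0.20 in Ndufv1, which encodes the flavin-binding subunit, and none differed by 0.32 or more. The 29 accessory genes compared had a median of -0.034, and 13 of them were above 0. The complex as a whole (38 genes) had a median of -0.035 at 1 uM and 0.077 at 0.01 uM, where its lowest and highest genes were Ndufs3 (-0.056) and Ndufa9 (0.27).

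Ndufa6, an accessory subunit of the LYR protein family, had the lowest value of complex I at 1 uM, with each gene taken by the probe used for it. Further probes of Ndufv3, given below, had lower differences. The log2 signal of Ndufa6 was 1.05 on the untreated array, 1.13 at 0.01 uM and 0.40 at 1 uM. The first 2 arrays lay close together and the 1 uM array lay below both, a difference of -0.66 (technical SE 0.20) from untreated and 1.58-fold. This call was kept in 13 of 14 alternative settings, and was lost on the spike-in scale. Ndufa3, a small membrane subunit, had signals of -0.27, -0.091 and -0.72 in the same order. It passed 1.5-fold only between the 2 doses (-0.63, 1.55-fold), and its difference from untreated was -0.45.

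Ndufa9, an accessory subunit near the ubiquinone site, had the highest difference of complex I against untreated, 0.42 (technical SE 0.20) at 1 uM. Its signals were 0.70 untreated, 0.96 at 0.01 uM and 1.12 at 1 uM, so the order followed the dose, but neither step reached 1.5-fold. The assembly factor Ndufaf2 followed with 0.41 and was highest of the complex between the doses (0.43), while Ndufaf1 had -0.085. Ndufa4 had 0.29, and no value is given for its paralog Ndufa4l2, which the naming rule did not find on the array.

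Ndufv3, a small subunit beside the flavin-binding domain, gave 2 answers. The probe used for it, A_52_P170054, had signals of 1.43, 1.52 and 1.02 on the untreated, 0.01 uM and 1 uM array, a difference of -0.41 at 1 uM. A_51_P140211 read -1.04, -0.87 and -2.23 and A_52_P175897 read -1.50, -1.26 and -2.65. The last 2 probes were therefore 2.27-fold and 2.22-fold lower at 1 uM than untreated, and all 3 probes were well above background on all arrays. Both lie further along the gene than the first. Which transcripts each probe detects was not tested. Of 20 members with several probes measured at 1 uM and untreated, only Ndufv3 and Ndufab1 had probes over 1.5-fold apart in their difference. At 0.01 uM against untreated this held for 0 of 18.

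**Figure D3:**
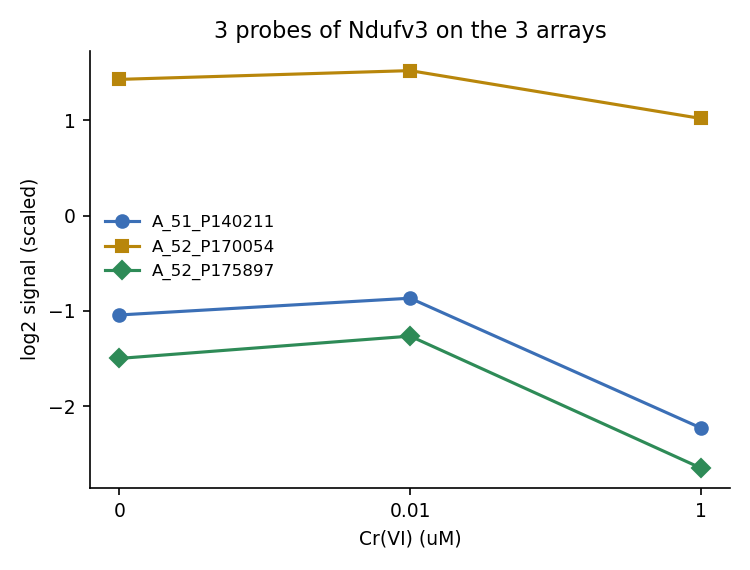
Scaled log2 signal of the 3 Ndufv3 probes on the untreated, 0.01 uM and 1 uM Cr(VI) array (1 array each). From untreated to 1 uM the probe A_52_P170054 went from 1.43 to 1.02, while A_51_P140211 went from -1.04 to -2.23 and A_52_P175897 from -1.50 to -2.65.

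Ndufab1, the mitochondrial acyl carrier protein that is also a complex I subunit, was represented by a probe with signals of 0.60, 0.57 and 0.71. A dim probe of the same gene, A_51_P208801, read -4.79 untreated and -3.31 at 1 uM, 2.79-fold higher, and was not above background at 0.01 uM. A further dim probe, A_52_P303235, was above background only at 1 uM, at -4.59. With the mean of probes in place of the brightest one, Ndufab1 was called higher at 1 uM, and Ndufv3 and Sdha were called lower.

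Complex II is encoded wholly in the nucleus by 4 genes, and 0 of the 4 passed 1.5-fold at 1 uM. There Sdha, the flavoprotein, had -0.34 and Sdhd, a membrane anchor, -0.40, while Sdhb, the iron-sulfur subunit, had 0.27 and Sdhc, the other anchor, 0.21. Each technical SE was near 0.20, and none of the 4 lay beyond 2 SE. The signals of Sdha were -0.26, -0.16 and -0.59 on the untreated, 0.01 uM and 1 uM array and those of Sdhd were 1.11, 1.12 and 0.71. Sdhb read 0.38, 0.49 and 0.65, and Sdhc read -0.47, -0.24 and -0.26. At 0.01 uM all 4 were above untreated, by 0.014 (Sdhd) to 0.24 (Sdhc), and none lay beyond 2 SE. In that comparison 81.8% of the 77 members and 46.0% of all genes were above 0. Of genes with a mean signal above 0 it was 66.1%. A further measured probe of Sdha, A_52_P109503, gave -0.40 at 1 uM. With the mean of probes Sdha was called lower at 1 uM, against untreated and against 0.01 uM. There the probe A_52_P458708, not above background on any array, also entered.

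The 7 genes of complex III ranged from Uqcrh at -0.64 to Uqcrc1 at 0.38 at 1 uM, with a median of -0.16. Uqcrh, the acidic hinge protein next to cytochrome c1, read 3.00 untreated, 3.12 at 0.01 uM and 2.35 at 1 uM. Again the 1 uM array stood below the other 2, by 1.56-fold against untreated. This call was kept in 10 of 14 alternatives. It was lost with quantile normalization, loess and the spike-in scale. With saturated spots kept it was also lost, and there the gene's other probe stood for the gene, with -0.13. That probe was saturated on the untreated and the 0.01 uM array but not at 1 uM. Its untreated signal was therefore a lower limit, and the size of its fall is not known.

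The core proteins of complex III, Uqcrc1 and Uqcrc2, form its matrix-facing pair, and their differences at 1 uM had opposite signs. Uqcrc1 had signals of 1.75, 1.90 and 2.13, and Uqcrc2 had 1.60, 1.52 and 1.12, a difference of -0.48 at 1 uM. Both were within 1.5-fold. Uqcrb, which lies near the ubiquinone site, had -0.42, and Uqcrfs1, the Rieske iron-sulfur protein, -0.16. At 0.01 uM the complex ranged from -0.081 (Uqcrc2) to 0.23 (Uqcr, now Uqcr11). Cyc1, cytochrome c1, belongs to this complex but not to the naming rule, and had 0.51 at 1 uM.

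Complex IV had the lowest median of the 5 at 1 uM, -0.22 over 12 genes (Cox4nb and Cox7a2l included), with 9 of 12 below 0. Below 0 also lay 5837 of all 12314 genes, and 1714 of the 3030 with a mean signal above 0. Beyond 2 technical SE lay 3 of the 12, beside 38.1% of all genes. The median of complex IV kept a sign below 0 in all settings but the spike-in scale. Over the 8 widely expressed subunits compared, the median was -0.18, from -0.48 in Cox7c to 0.12 in Cox7b, and none was 1.5-fold apart. Cox4i1 had -0.22, Cox6b1 -0.15, Cox7a2 -0.22, Cox5a 0.017 and Cox5b -0.044. At 0.01 uM the values of the complex ranged from -0.23 (Cox7c) to 0.21 (Cox4i1), with a median of 0.084. Cox4i1 was not flagged as saturated, but read 3.88 untreated, 4.09 at 0.01 uM and 3.66 at 1 uM. With saturated spots kept, the saturated Cox8a probe read 3.70, 4.07 and 3.68 in the same order. The effect of so bright a signal on the differences of Cox4i1 was not tested. Cox7a2l, which takes part in supercomplex assembly, had -0.32 at 1 uM, and Cox4nb had the highest value, 0.28.

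Cox7a1, the heart and skeletal muscle form of subunit VIIa, gave the largest difference of any member. Its signals were -3.42 untreated, -3.38 at 0.01 uM and -5.81 at 1 uM, where it was not well above background. It was at least 4.17-fold lower at 1 uM than untreated and at least 4.27-fold lower than at 0.01 uM, both counted against the lowest signal among detected probes of the 1 uM array (-5.47). The bound on the log2 scale ranged from -2.24 to -1.23 over the alternatives in which the gene was compared. Its widely expressed paralog Cox7a2 read 2.31, 2.35 and 2.10.

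Cox6a2, the heart and muscle form of subunit VIa, was well above background on all arrays, with -0.64 untreated, -0.43 at 0.01 uM and -1.12 at 1 uM. The 1 uM array was 1.39-fold below untreated and 1.61-fold below 0.01 uM. For its paralog Cox6a1 no difference is given, because its probe was saturated on every array, and the same holds for Cox8a, whose paralogs Cox8b and Cox8c were dim. The 5 dim members read between -8.05 and -6.14, under the lowest detected signal of each array (-5.75 untreated, -4.91 at 0.01 uM and -5.47 at 1 uM).

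Muscle markers were set beside the 2 muscle forms. Of 12 skeletal and heart muscle markers, 4, 3 and 6 were above background on the untreated, 0.01 uM and 1 uM array, and their summed linear signal was 1.35, 1.26 and 0.83 times the scaling percentile. Myod1, Myog, Ckm, Myh1, Myh6 and Mb were not above background on any array. Des was detected on the untreated and the 1 uM array and was within 1.5-fold between them (0.33). Actc1 was 4.35-fold lower at 1 uM than untreated and Acta1 2.28-fold lower, whereas Tnnt2 was 4.05-fold higher, and Myh7 (at least 3.64-fold) and Tnni2 (at least 1.67-fold) were detected only at 1 uM. In the adipocyte and brown fat list 2 of 8 markers were detected on each array, Fabp4 was 5.02-fold lower and Ucp1, Cidea and Prdm16 were dim on all arrays. In a bulk sample fewer cells of a type and less RNA per cell cannot be told apart, and the part of these shifts in Cox7a1 and Cox6a2 was not tested.

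**Figure D4:**
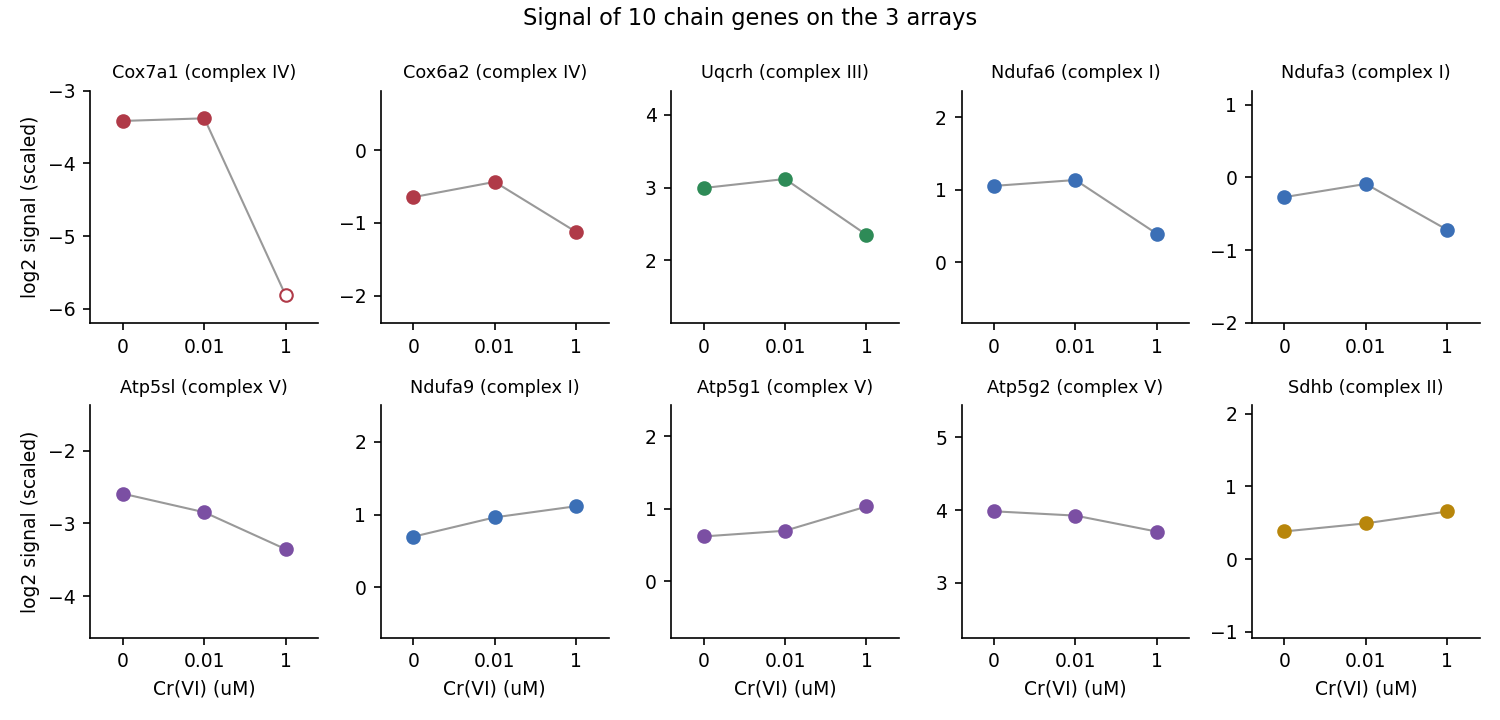
Scaled log2 signal of 10 chain genes on the untreated (0), 0.01 uM and 1 uM Cr(VI) array, 1 array each, every panel spanning the same number of log2 units. Filled points were well above background and the open point was not; Cox7a1 went from -3.38 at 0.01 uM to -5.81 at 1 uM, while Ndufa9 and Sdhb were highest at 1 uM.

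Complex V had a median of -0.069 at 1 uM over 16 genes and of 0.068 at 0.01 uM. The 4 genes of the catalytic F1 head that were compared lay close together, from -0.20 (Atp5b) to 0.012 (Atp5d), with Atp5a1 at -0.053 and Atp5e at -0.058. The 10 genes of the membrane Fo part and the stalks had a median of -0.023, with 5 above and 5 below 0. At 0.01 uM the extremes of the complex were Atp5sl (-0.25) and Atp5o (0.20).

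The proton-carrying c subunit is encoded by 3 genes whose mature proteins are alike and whose import peptides differ. On the scaling used here their differences at 1 uM did not share a sign. Atp5g1 read 0.62, 0.70 and 1.03 on the untreated, 0.01 uM and 1 uM array, a difference of 0.41 (technical SE 0.20). Atp5g2 read 3.99, 3.93 and 3.71, a difference of -0.28, and its further probe A_52_P287002 gave -0.36. On the spike-in scale the difference of Atp5g2 was 0.33. Its untreated signal was not flagged as saturated, but lay above the 3.70 of the saturated Cox8a probe on that array. Atp5g3 had 0.038. None of the 3 passed 1.5-fold, and only Atp5g1 lay beyond 2 technical SE.

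Atp5sl, an assembly factor of the complex I membrane arm despite its name, was lowest of this group. Its signals were -2.59, -2.85 and -3.36, falling by 0.76 on the log2 scale at 1 uM (technical SE 0.22, 1.70-fold). The 1 uM array was lowest and the 0.01 uM array lay between. The call was lost with normexp background correction and on the spike-in scale, and with the mean of probes, where a dim probe entered. Atp5s had -0.20.

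Promoters of 5 members are shown because 3 of these genes are structural or paralogous subunits past 1.5-fold at 1 uM, and Atp5g1 and Atp5g2 encode the same subunit. The differences of these 2 at 1 uM had opposite signs on the scaling used here. That of Atp5g2 lay within 2 technical SE, and on the spike-in scale it was 0.33. The fourth gene past 1.5-fold, Atp5sl, is not a subunit and its promoter is not printed. Each is the 250 bases before the gene start, 5′ to 3′ on the gene's strand, from RefSeq (GRCm38.p6), with capitals at an exact match to 1 of the 3 motifs searched.
Cox7a1: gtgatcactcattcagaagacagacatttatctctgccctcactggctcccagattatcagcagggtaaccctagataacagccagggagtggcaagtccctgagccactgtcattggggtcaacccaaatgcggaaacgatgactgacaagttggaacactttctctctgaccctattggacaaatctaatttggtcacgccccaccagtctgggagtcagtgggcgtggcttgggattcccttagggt
Uqcrh: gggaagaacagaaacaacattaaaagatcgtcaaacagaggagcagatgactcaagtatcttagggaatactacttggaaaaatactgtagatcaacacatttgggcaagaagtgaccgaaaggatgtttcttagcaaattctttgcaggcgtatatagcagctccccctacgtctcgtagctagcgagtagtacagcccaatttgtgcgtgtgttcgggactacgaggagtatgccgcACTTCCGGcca
Ndufa6: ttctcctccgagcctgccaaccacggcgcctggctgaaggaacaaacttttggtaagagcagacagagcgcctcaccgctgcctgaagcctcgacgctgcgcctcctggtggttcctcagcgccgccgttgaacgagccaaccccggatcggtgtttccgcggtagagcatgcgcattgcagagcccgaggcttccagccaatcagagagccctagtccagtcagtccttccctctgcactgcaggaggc
Atp5g1: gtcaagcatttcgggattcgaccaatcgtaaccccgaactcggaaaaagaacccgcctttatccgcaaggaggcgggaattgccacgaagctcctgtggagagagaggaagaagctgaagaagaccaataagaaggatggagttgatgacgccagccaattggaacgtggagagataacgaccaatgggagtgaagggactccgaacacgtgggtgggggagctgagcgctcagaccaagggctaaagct
Atp5g2: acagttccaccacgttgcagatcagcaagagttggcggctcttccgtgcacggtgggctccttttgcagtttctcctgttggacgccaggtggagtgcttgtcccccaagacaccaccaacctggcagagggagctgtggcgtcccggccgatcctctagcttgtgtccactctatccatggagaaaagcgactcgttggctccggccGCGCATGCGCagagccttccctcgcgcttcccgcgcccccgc
They lie at chr7:30183921-30184170 on the plus strand for Cox7a1 and, on the minus strand, at chr4:116075071-116075320 (Uqcrh), chr15:82354292-82354541 (Ndufa6), chr11:96075632-96075881 (Atp5g1) and chr15:102671048-102671297 (Atp5g2).

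The motifs searched were cores bound by 3 factors known for nuclear-encoded mitochondrial genes: GCGCATGCG for NRF1, CCGGAAGT for ETS factors such as GABPA, and AAGATGGCG for YY1, on both strands and in 300 bases from 250 before to 50 after the start. Of the 86 members, 71 had a promoter in the table, with 77 promoters in all. The NRF1 core was in 10.4% of them against 1.75% of all 32851 promoters, the ETS core in 6.49% against 3.89%, and the YY1 core in 11.7% against 1.40%. Any of the 3 was in 27.3% of member promoters and 6.69% of all. Member promoters had a median GC content of 57.7% and all promoters 52.7%, and the part of GC content in these shares was not tested. In Uqcrh the ETS core starts at -11 from the gene start, and in Atp5g2 the NRF1 core, which nearly reads the same on both strands and so matched on each with overlap, starts at -42. Of the 8 genes with a YY1 core, 7 had it after the gene start. The window of Cox7a1 held none of the 3, nor did those of Ndufa6 and Atp5g1. Atp5sl (now Dmac2) had YY1 cores starting at 26 and at -53.

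Transcripts of these factors were detected on all arrays and were within 1.5-fold. Nrf1 had a log2 difference of -0.34 at 1 uM, Gabpa -0.11 and Yy1 0.11. In the list of biogenesis regulators and mitochondrial DNA maintenance, 16 of 19 genes were compared at 1 uM, of which 2 were higher and 2 lower. Ppargc1b and Pprc1, coactivators of mitochondrial genes, were 2.55-fold and 2.48-fold higher, and Ppargc1a was not above background on any array. Tfam, which packages mitochondrial DNA and starts its transcription, read 0.93 untreated, 1.35 at 0.01 uM and -0.028 at 1 uM, 1.94-fold lower than untreated and 2.59-fold lower than at 0.01 uM. Polg2, the accessory subunit of the mitochondrial DNA polymerase, was 1.56-fold lower.

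Of the 13 chain subunits encoded by mitochondrial DNA, 2 were found on the array by name. CYTB, the cytochrome b of complex III, read 2.52, 2.53 and 2.81, a difference of 0.29 at 1 uM, and COX2 was saturated.

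Electron carriers and enzymes that feed the chain had a median of 0.097 over 14 genes at 1 uM, with 3 higher and 1 lower. Pdss1, which starts the ubiquinone side chain, was 2.31-fold higher, Gpd2, the mitochondrial glycerol-3-phosphate dehydrogenase, 1.90-fold, and Cycs, cytochrome c, 1.67-fold, while Coq9 of ubiquinone synthesis was 1.68-fold lower. Etfdh, which passes electrons from fatty acid oxidation to ubiquinone, was 1.87-fold higher at 0.01 uM than untreated and 1.19-fold at 1 uM. Of 21 assembly factors compared at 1 uM, 3 were lower (Cox17, Tmem126b and Surf1) and 1 was higher (Lrpprc, 1.90-fold). Cox17, the copper chaperone of complex IV, read 3.41, 2.52 and 2.37, so both Cr(VI) arrays lay below the untreated one, by 1.84-fold at 0.01 uM and 2.04-fold at 1 uM.

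Among 21 genes of the tricarboxylic acid cycle and its entry, 1 was higher at 1 uM (Idh3a, 1.68-fold) and 2 were lower (Pdk4, a kinase that turns pyruvate dehydrogenase off, 3.09-fold, and Pcx, 1.58-fold). Of 13 inner and outer membrane carriers only Slc25a13 passed 1.5-fold, higher by 1.86-fold, and of 13 chaperones and proteases only Hspd1, higher by 1.58-fold. In peroxide and superoxide removal 2 of 9 were lower, Prdx5 by 1.63-fold and Gpx4 by 1.59-fold, and 0 higher. All 75 mitochondrial ribosomal protein genes were compared, with a median of 0.048 at 1 uM, 2 higher (Mrpl12, 1.67-fold, and Mrps2, 1.63-fold) and 1 lower (Mrps12, 1.84-fold).

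**Figure D5:**
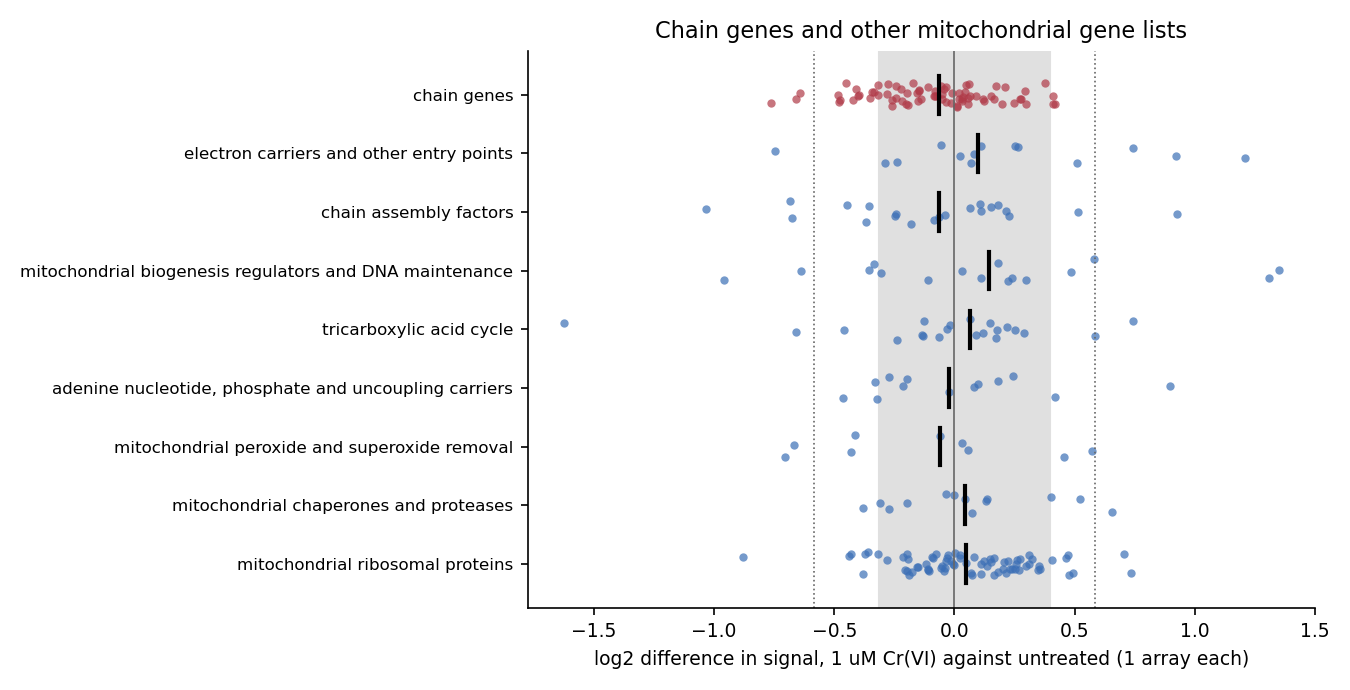
Log2 difference at 1 uM Cr(VI) against untreated (1 array each) for the chain genes and 8 other mitochondrial lists. Points are genes, black bars are medians, the grey band holds the middle 50% of all genes, dotted lines mark 1.5-fold, and genes with only a bound, such as Cox7a1, are left out; the chain genes lie between -0.76 and 0.42.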

How the data were processed

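The authors' spot intensity values come from a single-channel Cy3 scan read by Agilent Feature Extraction 10.5.1.1, per the file headers, with detrending and surrogate values for spots near background. The deposited value table holds log2 values that differed from log2 processed intensity by 1 constant per array, within 0.01 for over 99.8% of probes (column medians -4.23, -3.96 and -4.03 for untreated, 0.01 uM and 1 uM), so its scale and direction are known and only its centring differs. The tool behind that table is not named here.

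Control, outlier and saturated spots were left out, replicate spots were averaged as log2 values, and each array's 75th percentile over probes detected on all arrays was subtracted. Under 50% of probes were detected, which is why all probes were not used. A gene was its brightest probe. The threshold was 1.5-fold. Where 1 array was dim, the brighter signal was set against the higher of the dim signal and the lowest detected one, and the fold is a lower bound. The comparison step was run on the untreated signals with noise and known shifts added, which checked that median shifts were returned. Counts past 1.5-fold were not checked there, and the added noise did not hold the spread between cultures. Members and lists were chosen with earlier results of these data known. Named genes were members past 1.5-fold, the extremes of each complex, saturated and dim members, paralogs, complex II, discordant probes and up to 4 list genes per direction. Nrf1, Gabpa, Yy1, Ppargc1a, Etfdh, Cyc1 and other members given by value were named after their values were seen. RefSeq (GRCm38.p6) gave current symbols, 85 members by accession. Tools were pandas 2.3.3, numpy 2.4.6 and statsmodels 0.14.6 in Python 3.11.15, and limma 3.58.1 in R 4.3.3 (normexp, offset 50). Precision is limited by the number of arrays.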

Additional observations from a re-analysis of the deposited data

How the results depend on the processing

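Of 18 alternatives, 1 was added after seeing the data (mean signal above 0). Scaling on 5 unsaturated spike-in controls moved all genes, with a median of 0.64 at 1 uM, 0.35 at 0.01 uM and 0.32 between the doses. On that scale the medians against untreated at 1 uM were 0.54 for all members and 0.58, 0.55, 0.45, 0.39 and 0.54 for complexes I to V, all of them of reversed sign. At 0.01 uM they were 0.44 for all members and 0.44, 0.46, 0.49, 0.45 and 0.43. Between the doses they were 0.094 and 0.13, 0.031, 0.048, 0.019 and 0.12, all again of reversed sign. At 1.5-fold, 32 members were then higher and 1 lower at 1 uM, 3 higher at 0.01 uM, and 1 higher and 1 lower between the doses. Of all genes, 54.5% were higher and 2.93% lower at 1 uM, 5.40% and 0.31% at 0.01 uM, and 28.3% and 7.0% between the doses. Relative to the median of all genes the members' values are the same as before (-0.11, 0.094 and -0.23). Among genes with a mean signal above 0, on the main scale, they were 0.012, 0.039 and -0.042. Without the spike-in scale the median of all members ranged from -0.14 to 0.048 at 1 uM, from 0.036 to 0.14 at 0.01 uM and from -0.28 to -0.017 between the doses. The 1 uM medians of all members and of complexes I and V changed sign with quantile normalization and loess, and so did complex V between the doses.

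The count lower between the doses was 9 with the 75th percentile of all probes and with the deposited table, beside 17.6% of all genes in each. Without a filter on dim probes 4 members were higher at 0.01 uM, all of them not above background, beside 46.2% of all genes. The median of complex IV between the doses was then -0.44. The mean of probes gave 1 member higher at 1 uM and 3 between the doses, beside 15.65% and 14.5% of all genes. With structural subunits only, 2 were lower at 1 uM and 3 between the doses, beside 11.6% and 12.9% of all genes. Current symbols (92 members) gave 1 higher at 1 uM and 2 between the doses, beside 16.3% and 16.7% of all genes. Among genes with a mean signal above 0, 2 members were lower at 1 uM and 2 between the doses, beside 10.6% and 14.3% of all such genes. At 2-fold, 1 member was lower at 1 uM and 1 between the doses (Cox7a1 in both), beside 4.35% and 4.97% of all genes. At a threshold of 0.32 on the log2 scale, 4 were higher and 15 lower at 1 uM, and 2 higher and 18 lower between the doses. Of all genes, 29.3% were higher and 22.9% lower at 1 uM, and 29.2% and 24.1% between the doses. No paired analysis was possible because each group had 1 array. Saturation hid 4 members, and 5 were too dim to compare.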
